A study of Mus musculus with 6 samples.

Results

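The UDP-glucuronosyltransferase (UGT) 2 and 3 families were described in livers of mice with a deletion of *Spns1*, the gene of a lysosomal lysolipid transporter. The members are the 10 genes of the deposited table that carry the symbols *Ugt2a3*, *Ugt2b1*, *Ugt2b5*, *Ugt2b34*, *Ugt2b35*, *Ugt2b36*, *Ugt2b37*, *Ugt2b38*, *Ugt3a1* and *Ugt3a2*, out of 54532 genes listed. They were picked by gene name, at a time when earlier results of these data were known, and all 10 passed the filter on low counts, with at least 10 counts in every library. Whole livers of 3 mice per genotype, g*Spns1*-cKO and control, were analysed by RNA-Seq with 1 library per mouse. The g*Spns1*-cKO mice, of C57BL/6 background, were Spns1 fl/fl with loxP sites around exon 3 and carried Rosa26Cre-ERT2, a tamoxifen-dependent Cre expressed from a locus that is active in all tissues. Tamoxifen was injected at 50 mg/kg on postnatal days 11, 13 and 15. The study's methods use Spns1 fl/fl littermates as controls, whereas the labels call the control livers wild type. Whether the controls received tamoxifen, and the age and sex of these 6 mice, are not given in the sources used here. The deletion was designed for the whole body, so a liver of these mice comes from an animal whose other organs were targeted too. The extent of deletion in other organs of these 6 mice is not given in the sources used here.

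UGT enzymes sit in the membrane of the endoplasmic reticulum and transfer a sugar from a UDP-sugar to small lipophilic molecules, which makes these soluble enough to leave in bile or urine. UGT2 enzymes use UDP-glucuronate, and their substrates include steroid hormones, bile acids, fatty acids and drugs. The UGT3 enzymes of humans use other UDP-sugars (UDP-N-acetylglucosamine, UDP-glucose or UDP-xylose). The liver is the main organ of glucuronidation, and hepatocytes carry most of it.

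On the mm10 (GRCm38) genome the 8 UGT2 members lie in 1 cluster on chromosome 5 between positions 86889767 and 87424203, a span of 534.4 kb with 26 listed genes, 15 of them pseudogenes. In order along the chromosome they are *Ugt2b34*, *Ugt2b1*, *Ugt2b35*, *Ugt2b36*, *Ugt2b5*, *Ugt2b37*, *Ugt2a3* and *Ugt2b38*, and 7 of the 8 lie on the minus strand, with *Ugt2b35* on the plus strand. *Ugt3a1* and *Ugt3a2* are neighbours on the plus strand of chromosome 15 between 9276888 and 9370955, a span of 94.07 kb. Each UGT2 member has 6 coding exons and each UGT3 member has 7, and no member overlaps another listed gene. Coding sequences of GENCODE M21 were between 71.9% and 97.0% identical among the 7 UGT2B genes. *Ugt2a3* shared between 67.2% and 69.8% with them, and UGT2 and UGT3 genes shared between 53.9% and 56.5%. *Ugt3a1* and *Ugt3a2* were 93.2% identical to each other.

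The promoters of the members are shown because the UGT2B genes differ in how far they moved while sharing a short block of sequence. RefSeq (GRCm38.p6) gave a promoter for 9 of the 10 members, all but *Ugt3a2*. The last 140 bases before the RefSeq start are printed 5′ to 3′ on the gene's strand for 6 of them, and the capitals mark the block GTTANANNTTAAC, where N is any base. It is the stretch of 13 bases that varies least among the 7 UGT2B promoters, with 3 positions that vary. The first 3 genes below fell by more than 2-fold, *Ugt2b36* fell less, *Ugt2b35* did not pass the test, and *Ugt3a1* fell most.
*Ugt2b38* (chr5:87424204-87424343, minus strand): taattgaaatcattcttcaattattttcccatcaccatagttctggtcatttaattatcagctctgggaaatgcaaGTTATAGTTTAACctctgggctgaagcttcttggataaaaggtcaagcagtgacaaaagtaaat
*Ugt2b5* (chr5:87140341-87140480, minus strand): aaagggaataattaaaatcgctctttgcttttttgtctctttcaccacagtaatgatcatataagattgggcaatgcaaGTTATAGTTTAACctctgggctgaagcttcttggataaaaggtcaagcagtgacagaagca
*Ugt2b1* (chr5:86926504-86926643, minus strand): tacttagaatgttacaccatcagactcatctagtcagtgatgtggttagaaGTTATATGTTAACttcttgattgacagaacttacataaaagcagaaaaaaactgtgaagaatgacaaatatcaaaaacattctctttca
*Ugt2b36* (chr5:87092556-87092695, minus strand): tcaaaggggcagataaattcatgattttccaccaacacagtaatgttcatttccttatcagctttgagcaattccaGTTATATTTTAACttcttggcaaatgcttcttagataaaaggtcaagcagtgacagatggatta
*Ugt2b35* (chr5:87000720-87000859, plus strand): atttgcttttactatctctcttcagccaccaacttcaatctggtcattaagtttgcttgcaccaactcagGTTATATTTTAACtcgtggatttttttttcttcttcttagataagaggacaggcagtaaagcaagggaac
*Ugt3a1* (chr15:9279689-9279828, plus strand): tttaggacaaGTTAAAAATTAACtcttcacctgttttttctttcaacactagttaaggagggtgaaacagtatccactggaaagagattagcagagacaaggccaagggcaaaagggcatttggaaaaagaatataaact

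The block was derived from these promoters, so its presence in UGT2B genes is a description. It was found in 8 of the 9 member promoters, *Ugt2a3* being the exception, and in 28 of 32851 promoters (0.0852%) when the 250 bases before every RefSeq start were searched on both strands. In the UGT2B genes it begins between 61 and 89 bases before the RefSeq start, and in *Ugt3a1*, on another chromosome, 130 bases before it. RefSeq starts differ from the gene bounds deposited with the counts for some members. The printed stretch of *Ugt3a1* lies within the gene by those bounds, which begin at 9276888. That of *Ugt2b1* overlaps the end of its gene at 86926530. The block occurs in the promoter of *Ugt2b35*, which did not pass the test, and with the same 13 letters in that of *Ugt2b36*, which fell. Of the 19 other genes with the block none is a UGT gene. Of the 10 that were tested 3 fell and 2 rose, near the 20.5% and 21.3% of all genes tested. *Ugt2b37* and *Ugt2b38* shared an unbroken run of 82 bases, *Ugt2b5* and *Ugt2b37* one of 68, and *Ugt2b5* and *Ugt2b38* one of 62.

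Other motifs were searched with their letters on both strands of the same 250 bases, the TATA box on the gene's strand alone. The C/EBP motif TTGCNNAA was in the promoters of *Ugt2b36* and *Ugt2b5* (2 of 9, against 9.56% of all promoters). The TATA box letters TATAAA were in that of *Ugt3a1* (1 of 9, against 7.59%), at positions -8 to -3 from the RefSeq start. The pattern is strict, and the similar letters GATAAAAGG in the printed stretches of *Ugt2b5*, *Ugt2b36* and *Ugt2b38* were not counted. A missing match therefore does not show that a promoter lacks such a box. The STAT5 motif TTCNNNGAA (7.02%) and the HNF4 core CAAAGTCC (1.20%) had no match in a member promoter. A match is a run of letters and not a measured binding site.

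The libraries held between 30350002 and 35295611 counts. TMM, which scales libraries so that most genes do not change on balance, gave factors of 0.834 to 0.873 for the control and 1.16 to 1.18 for the g*Spns1*-cKO libraries, so the scaling bears on every fold change below. *Spns1* itself had 1008, 1562 and 875 counts in control livers 1 to 3 against 642, 1175 and 698 in the g*Spns1*-cKO livers. It fell by 0.87 on the log2 scale (SE 0.25, edgeR adjusted p = 0.0300). The counts are given per gene and not per exon, and the cause of the remaining counts was not tested. The adjusted p of *Spns1* was above 0.05 without control liver 2 (0.0785), g*Spns1*-cKO liver 1 (0.0910) or 3 (0.0830), and with library size alone (0.213). The 8 hepatocyte markers were all expressed, with a summed level of 107142 to 121730 CPM (counts scaled to a common library total) in control and 63609 to 75585 CPM in g*Spns1*-cKO livers, and 6 of the 8 fell. All 6 cholangiocyte markers, all 6 macrophage markers and all 5 stellate cell markers rose, as did 4 of 5 endothelial and 3 of 5 leukocyte markers. In all 6 libraries *Xist* had at most 5 counts and *Ddx3y* between 1731 and 2568, the pattern of males. Of 4 kidney tubule markers *Umod* and *Kap* had 0 counts throughout, and *Lrp2*, the 1 that was tested, fell from 89, 80 and 25 to 13, 24 and 47 counts. Of 4 intestinal markers *Sis* had none, *Fabp2* fell from 3923, 2760 and 2869 to 1397, 1062 and 1525 counts, and *Vil1* rose from 5, 1 and 0 to 23, 20 and 24.

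Of the 10 members 9 fell in g*Spns1*-cKO livers and 0 rose, by the quasi-likelihood test of edgeR with p-values adjusted over all genes. None was higher at an unadjusted p under 0.05 or by DESeq2 either. Over all 15449 genes tested 20.5% fell, 21.3% rose and 41.8% changed in either direction. The median log2 fold change was -1.22 over the members and 0.014 over all genes. At least 2-fold lower were 6 of the 10, namely *Ugt3a1*, *Ugt2b38*, *Ugt2b37*, *Ugt2b1*, *Ugt2b5* and *Ugt3a2*, against 5.29% of all genes. In the same 9 members every g*Spns1*-cKO liver lay below every control liver, which held for 26.9% of all genes, with 27.1% wholly above. An exact two-sided permutation test of 1 member gave p = 0.1 for each of these 9, the smallest p that 3 mice against 3 allow.

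**Figure D1:**
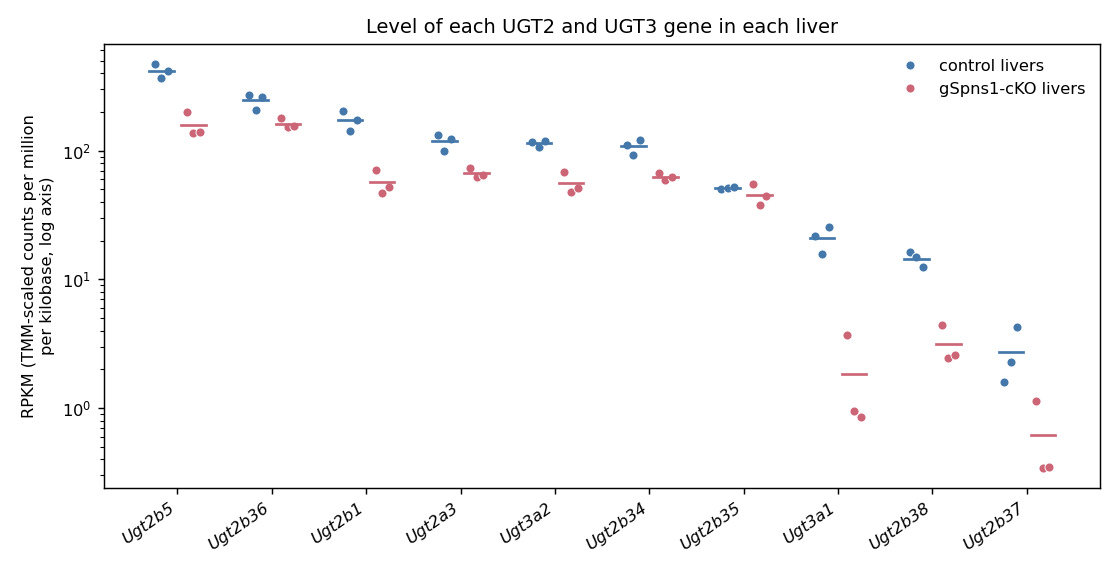
Level of each UGT2 and UGT3 gene in each liver, in RPKM (TMM-scaled counts per gene length) on a log axis, with 1 point per mouse and a line at the mean of 3 mice. The control and g*Spns1*-cKO points do not overlap in 9 genes and overlap in *Ugt2b35*, and the widest gap is that of *Ugt3a1* (21.0 against 1.84 RPKM).

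Levels are given per length, as RPKM over the gene lengths in the table, so that genes can be set side by side. Some of these lengths exceed the transcript with the longest coding sequence. The lengths are 4312 against 3051 bases in *Ugt2b34*, 3102 against 2329 in *Ugt3a2*, 2670 against 2244 in *Ugt3a1* and 2059 against 1888 in *Ugt2b36*. The order of the genes below therefore depends on the length used. In control livers *Ugt2b5* was the most abundant member with 417 ± 52.2 RPKM (SD, n = 3), rank 192 of the genes tested, and *Ugt2b36* followed with 247 ± 35.5 and *Ugt2b1* with 173 ± 29.7. *Ugt2a3* (118 ± 17.6), *Ugt3a2* (115 ± 6.73) and *Ugt2b34* (108 ± 14.6) overlapped and could not be ordered. *Ugt2b35* (51.2 ± 1.09) was clear of its neighbours in the order, while *Ugt3a1* (21.0 ± 4.82) and *Ugt2b38* (14.5 ± 1.97) overlapped each other, and *Ugt2b37* came last with 2.71 ± 1.40.

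The order was different in g*Spns1*-cKO livers. *Ugt2b36* (162 ± 13.7 RPKM) and *Ugt2b5* (158 ± 35.1) overlapped at the top. *Ugt2a3* (66.8 ± 5.46), *Ugt2b34* (62.8 ± 4.10), *Ugt2b1* (56.8 ± 12.8), *Ugt3a2* (55.8 ± 10.8) and *Ugt2b35* (45.4 ± 8.65) formed a run in which each overlapped the next. *Ugt2b38* (3.16 ± 1.09), *Ugt3a1* (1.84 ± 1.63) and *Ugt2b37* (0.61 ± 0.46) stood far below, each overlapping the next.

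*Ugt2b5*, the leading UGT2B transcript of these control livers, had 24525, 20892 and 19606 counts in control livers 1 to 3 and 13276, 9750 and 10140 in g*Spns1*-cKO livers 1 to 3. Per length this was 469, 365 and 417 RPKM against 199, 137 and 139. The groups were well apart, with the highest g*Spns1*-cKO liver, liver 1, still far below the lowest control liver. The level fell by 1.40 on the log2 scale (SE 0.18, edgeR adjusted p = 0.000250), to 37.9% of control.

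*Ugt2b1* is another UGT2B gene, whose nearest relative in the family is 74.9% identical to it. It was at 202, 143 and 173 RPKM in control and 71.3, 47.0 and 52.2 in g*Spns1*-cKO livers, from 14639, 11322 and 11242 against 6602, 4638 and 5277 counts. All 3 g*Spns1*-cKO livers were under the lowest control liver. The level fell by 1.60 on the log2 scale (SE 0.19, edgeR adjusted p = 0.000155), a 3.04-fold decrease. No stretch of 50 bases of its transcript occurs in another gene, so its value does not depend on how shared reads were counted.

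*Ugt2b38* fell more steeply from a lower level. It had 865, 864 and 592 counts in control and 301, 179 and 193 in g*Spns1*-cKO livers, or 16.3, 14.8 and 12.4 against 4.42, 2.47 and 2.60 RPKM. The groups did not overlap, and g*Spns1*-cKO liver 1 was again the highest of its group. The change was -2.20 on the log2 scale (SE 0.23, edgeR adjusted p = 0.000146), a 4.59-fold decrease.

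*Ugt2b37*, the least abundant member, had 85, 132 and 205 counts in control and 78, 25 and 26 in g*Spns1*-cKO livers. After scaling, this was 1.60, 2.26 and 4.28 against 1.14, 0.34 and 0.35 RPKM. The groups were apart, but g*Spns1*-cKO liver 1 came close to control liver 1. The change was -2.15 on the log2 scale (SE 0.58, edgeR adjusted p = 0.0233). This call was lost without control liver 2 (adjusted p = 0.0509) or g*Spns1*-cKO liver 2 (0.0746) or 3 (0.0731), and without g*Spns1*-cKO liver 1 the value was -2.96.

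*Ugt2b5*, *Ugt2b37* and *Ugt2b38* are close copies, with coding identities of 97.0% for *Ugt2b5* and *Ugt2b38*, 94.7% for *Ugt2b5* and *Ugt2b37*, and 94.1% for *Ugt2b37* and *Ugt2b38*. Of all stretches of 100 bases along the transcript, 24.7% in *Ugt2b5* and 24.2% in *Ugt2b38* also occur in another gene, against 1.06% in *Ugt2b37* and at most 0.595% in the other members. The treatment of reads that map to several genes is not given in the sources used here, so the split among these 3 genes is uncertain. Their summed counts were 25475, 21888 and 20403 in control and 13655, 9954 and 10359 in g*Spns1*-cKO livers, or 808 ± 97.7 against 301 ± 68.2 CPM, a log2 ratio of -1.42 that mostly reflects *Ugt2b5*. The sum does not depend on the split among the 3 genes. It can still depend on whether shared reads were counted at all.

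*Ugt2b36*, *Ugt2b34* and *Ugt2a3* fell less than the genes above. *Ugt2a3*, whose human counterpart glucuronidates bile acids, was at 133, 99.0 and 123 RPKM in control and 72.9, 62.5 and 64.9 in g*Spns1*-cKO livers. The groups were apart, and the level fell by 0.83 on the log2 scale (SE 0.14, edgeR adjusted p = 0.00116), to 56.4% of control.

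*Ugt2b34* was at 111, 92.2 and 121 RPKM in control and 67.0, 58.8 and 62.4 in g*Spns1*-cKO livers, with no overlap. It fell by 0.78 on the log2 scale (SE 0.14, edgeR adjusted p = 0.00170). *Ugt2b36*, second in controls and level with *Ugt2b5* in g*Spns1*-cKO livers, was at 272, 206 and 263 against 178, 153 and 156 RPKM. The lowest control liver was above the highest g*Spns1*-cKO liver, and the level fell by 0.60 on the log2 scale (SE 0.15, edgeR adjusted p = 0.00857).

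*Ugt2b35* was the member that did not pass. It was at 168, 174 and 175 CPM in control and 184, 126 and 148 in g*Spns1*-cKO livers, from 4722, 5343 and 4424 against 6605, 4834 and 5829 counts. The control livers were almost equal, and g*Spns1*-cKO liver 1 lay above all of them while livers 2 and 3 lay below. The log2 fold change was -0.17 (SE 0.14, edgeR adjusted p = 0.356), with a 95% interval of -0.49 to 0.14, so a fall of the size seen in *Ugt2b36* lies outside the interval. The exact two-sided permutation test gave p = 0.4.

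*Ugt3a1* showed the steepest fall of the 10 genes. It had 1642, 1300 and 1712 counts in control and 358, 98 and 89 in g*Spns1*-cKO livers, or 21.9, 15.8 and 25.3 against 3.73, 0.96 and 0.85 RPKM. The groups were far apart, and within the g*Spns1*-cKO group liver 1 stood well above livers 2 and 3. The change was -3.52 on the log2 scale (SE 0.71, edgeR adjusted p = 0.0184), an 11.4-fold decrease of the mean. Its adjusted p rose just above 0.05 without control liver 1 (0.0507) or g*Spns1*-cKO liver 2 (0.0611) or 3 (0.0501), and without g*Spns1*-cKO liver 1 the change was -4.54 (edgeR adjusted p = 2.31e-06).

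*Ugt3a2*, its neighbour, was at 117, 107 and 120 RPKM in control and 68.1, 47.9 and 51.4 in g*Spns1*-cKO livers, from 10209, 10216 and 9397 against 7601, 5706 and 6272 counts. The groups were apart and the controls close together. The level fell by 1.04 on the log2 scale (SE 0.15, edgeR adjusted p = 0.000521), a 2.05-fold decrease. No stretch of 100 bases of either UGT3 transcript occurs in another gene, but 9.38% of the 50-base stretches of *Ugt3a1* and 9.39% of those of *Ugt3a2* do, in each other or in *Gm5219*.

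Within the g*Spns1*-cKO group, liver 1 had the highest level of the 3 livers in all 10 members (10 of 10). The same held for 39.3% of all genes tested and for 53.7% of the 3166 genes that fell. Values of different genes from 1 library share its RNA and scaling, so these are not 10 independent observations.

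**Figure D2:**
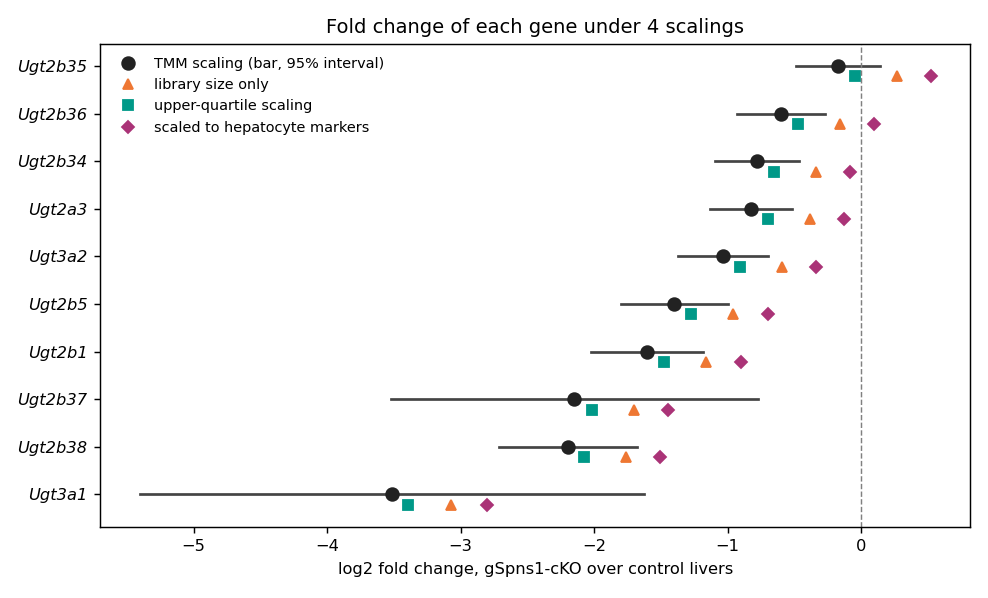
Log2 fold change of each gene between g*Spns1*-cKO and control livers (3 mice each), with black points and 95% intervals for TMM scaling and coloured symbols for library size alone, upper-quartile scaling and scaling to 8 hepatocyte markers. All genes shift together between scalings, so that *Ugt2b35* crosses 0 with library size alone (0.27) and with hepatocyte markers (0.52), *Ugt2b36* with hepatocyte markers (0.09), while the other 8 genes stay below 0.

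In whole liver, fewer hepatocytes and less UGT RNA per hepatocyte cannot be told apart. The summed hepatocyte markers, of which *Alb* is the largest part, fell along with the members, though *Cps1* was higher. Most markers of other liver cells rose, with macrophage markers at 168 to 273 CPM in control and 633 to 935 CPM in g*Spns1*-cKO livers. The part of this shift in the UGT values was not tested. When each library was instead scaled to the 8 hepatocyte markers, a choice made after seeing the data, 4 members were still lower and 1 was higher (5 of 10 called). The 4 were *Ugt3a1*, *Ugt2b38*, *Ugt2b1* and *Ugt2b5*, and the higher one was *Ugt2b35*, with 0.52 on the log2 scale (edgeR adjusted p = 0.0151). With library size alone 7 members were lower and *Ugt2b34* (-0.34) and *Ugt2b36* (-0.16) no longer passed. These scalings moved the median of all genes to 0.70 and 0.46. A change of scaling adds nearly the same shift to every gene.

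Ratios of 2 members within a library do not depend on scaling. The pairs were chosen after their values were seen, so the ratios are a description with no test. The counts of *Ugt3a1* over those of *Ugt3a2* were 0.161, 0.127 and 0.182 in control and 0.0471, 0.0172 and 0.0142 in the g*Spns1*-cKO group, a difference of -2.78 on the log2 scale. *Ugt2b1* over *Ugt2b35* was 3.10, 2.12 and 2.54 against 1.00, 0.959 and 0.905. *Ugt2b5* over *Ugt2b36* was 1.56, 1.60 and 1.43 against 1.01, 0.805 and 0.805. No ratio of a control liver overlapped one of a g*Spns1*-cKO liver.

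The 8 UGT2 genes together had 81976, 70317 and 69525 counts in control and 56002, 46346 and 50040 in g*Spns1*-cKO livers. In TMM-scaled units this was 2649 ± 327 against 1346 ± 185 CPM, 50.8% of control. As an unscaled share of all counts it was 0.227% ± 0.0265 against 0.157% ± 0.0204, 69.1% of control. The groups did not overlap on either scale.

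The make-up of this sum shifted. *Ugt2b5* gave 29.3% ± 0.938 of the UGT2 counts in control and 21.7% ± 1.81 in g*Spns1*-cKO livers, *Ugt2b1* 16.7% ± 0.995 and 10.8% ± 0.914, and *Ugt2b38* 1.05% ± 0.189 and 0.436% ± 0.0875. The shares of these 3 genes were lower in every g*Spns1*-cKO liver than in any control liver. The shares of *Ugt2b36* (19.2% ± 0.545 and 24.9% ± 1.30), *Ugt2b35* (6.57% ± 0.937 and 11.3% ± 0.749) and *Ugt2a3* (9.44% ± 0.249 and 10.6% ± 0.558) were higher in every g*Spns1*-cKO liver. Those of *Ugt2b34* and *Ugt2b37* overlapped. By counts *Ugt2b5* was thus first in all 3 control livers. In the g*Spns1*-cKO livers, *Ugt2b36* was first in livers 2 and 3 and level with *Ugt2b5* in liver 1 (23.5% against 23.7%).

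**Figure D3:**
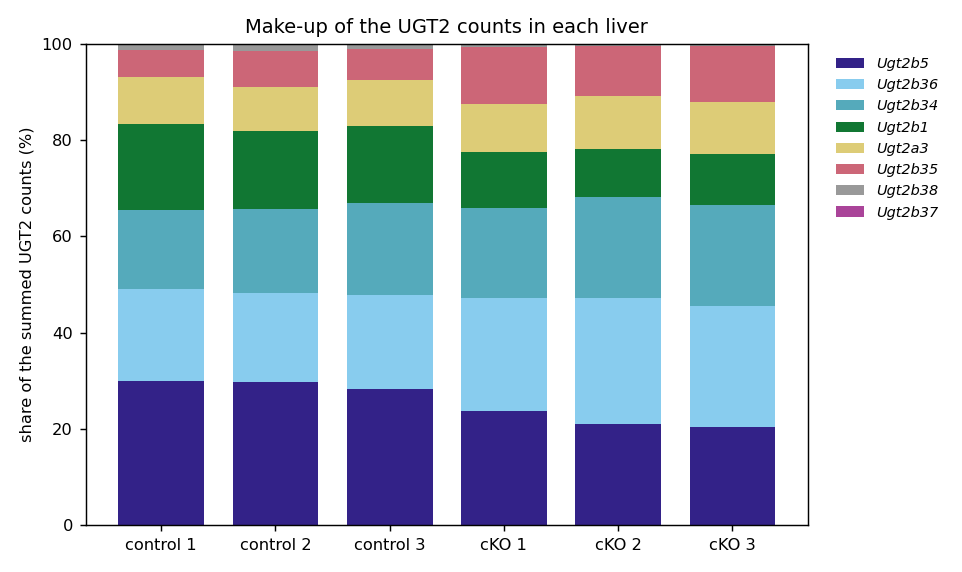
Share of each UGT2 gene in the summed UGT2 counts of each liver, in percent, stacked from 0 to 100 for 3 control and 3 g*Spns1*-cKO livers. The *Ugt2b5* band narrows from 29.3% to 21.7% on average and the *Ugt2b36* and *Ugt2b35* bands widen, while *Ugt2b37* is too small to see.

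The genes around the members moved in both directions under TMM scaling. Around and inside the UGT2 cluster 16 other genes were tested, 6 of them inside it, and 4 rose and 1 fell, with a median log2 fold change of 0.45. The tested genes can be far away, and these began from -2766 kb (*Hmgn2-ps1*) to 1665 kb (*Utp3*) from the start of the cluster. Around the UGT3 pair 10 were tested, of which 3 rose and 1 fell, with a median of 0.21. They began from -643 kb (*Slc1a3*) to 1170 kb (*Dnajc21*) from the start of the pair. Among all genes tested 21.3% rose and 20.5% fell. Over both sets 12 were higher and 0 lower with library size alone, and 17 higher and 0 lower with hepatocyte markers. The neighbours that moved most were *Sult1e1*, the estrogen sulfotransferase (7.59, edgeR adjusted p = 2.03e-05), *Capsl* (2.27, 0.0151), *Slc1a3*, a glutamate transporter (2.03, 0.0463), and *Jchain*, the joining chain of polymeric immunoglobulins (1.25, 0.00120). *Sult1e1* had 7, 3 and 4 counts in control and 1207, 1690 and 818 in g*Spns1*-cKO livers.

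**Figure D4:**
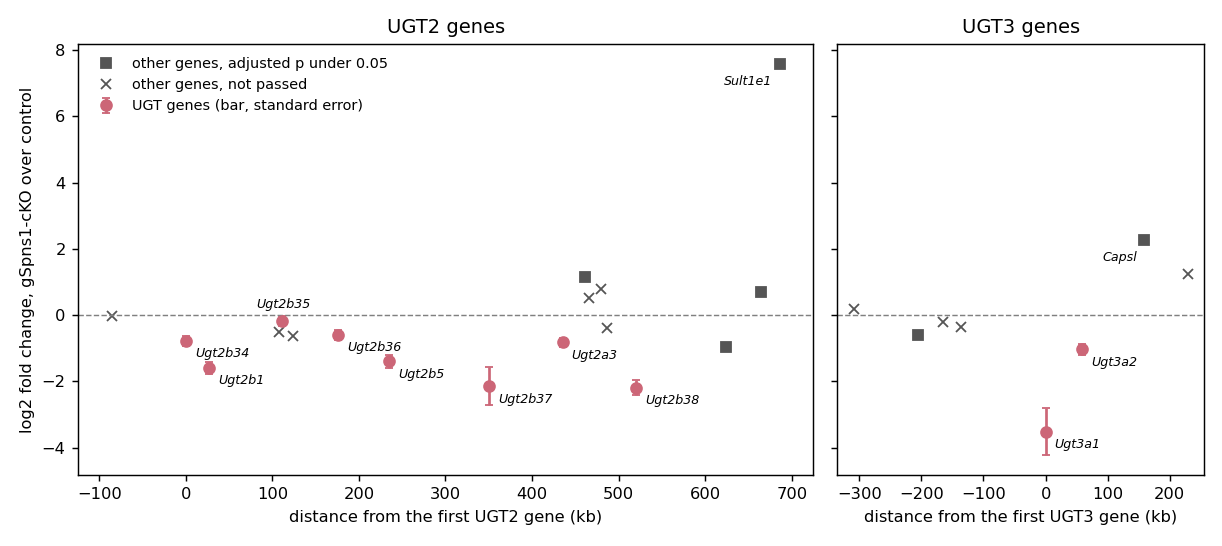
Log2 fold change of the UGT genes (red, with standard errors) and of the nearest tested genes (grey; 10 around the UGT2 and 6 around the UGT3 genes) against distance in kb from the first UGT gene of each cluster. The UGT points lie below 0 at -0.17 to -3.52, whereas *Sult1e1* lies at 7.59 and *Capsl* at 2.27.

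No other UGT gene passed the test as lower. Of 12 genes of the UGT1, UGT2A and UGT8 families 8 could be tested. By edgeR 1 rose and 0 fell, against 21.3% and 20.5% of all genes, with a median log2 fold change of 0.12. None was lower at an unadjusted p under 0.05 or by DESeq2. *Ugt1a1*, the enzyme that conjugates bilirubin, had 1393, 1315 and 1522 counts in control and 1845, 3511 and 3326 in g*Spns1*-cKO livers, or 0.58 on the log2 scale (SE 0.22, edgeR adjusted p = 0.0717), with overlap after scaling. *Ugt8a*, which makes galactosylceramide, rose by 2.50 (SE 0.55, edgeR adjusted p = 0.00491) from 5, 2 and 2 to 18, 29 and 24 counts. UGT1A genes share their last exons, and how reads there were assigned is not given in the sources used here. *Ugt2a1* and *Ugt2a2*, which also share exons, had 0 counts in all 6 libraries, which allows up to 3 counts in a library and does not cover reads on the shared exons.

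The sugar donor UDP-glucuronate is made in the cytosol from glucose by way of UDP-glucose and is carried into the endoplasmic reticulum; in mice it also feeds the synthesis of ascorbate. Of 12 genes of these steps 11 were tested, and 6 fell and 2 rose, against 20.5% and 21.3% of all genes, with a median of -0.51. The balance turned with the scaling, to 2 lower and 4 higher with library size alone and 1 lower and 4 higher with hepatocyte markers. *Slc35d1*, the transporter of UDP-glucuronate into the endoplasmic reticulum, fell from 4659, 5382 and 4542 to 2998, 2620 and 2981 counts, by 1.19 on the log2 scale (SE 0.12, edgeR adjusted p = 4.90e-05), with no overlap. *Rgn*, a gluconolactonase of the ascorbate branch, fell by 1.03 (SE 0.20, edgeR adjusted p = 0.00271). The genes of UDP-glucose synthesis that rose were *Ugp2*, by 0.77 (SE 0.18, edgeR adjusted p = 0.00647), and the phosphoglucomutase that the table names *Pgm1*, by 1.14 (SE 0.15, edgeR adjusted p = 0.000324). *Ugdh*, which oxidises UDP-glucose to UDP-glucuronate, was at 0.29 (SE 0.36, edgeR adjusted p = 0.566), with 6524, 4940 and 5217 counts in control and 12903, 5115 and 9338 in g*Spns1*-cKO livers, so the groups overlapped after scaling.

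Of the 10 genes of transport and hydrolysis of glucuronides all were tested. Here 4 fell and 3 rose, against 20.5% and 21.3% of all genes, with a median of -0.05. With library size alone or hepatocyte markers 2 were lower and 5 higher. *Slco1a1*, an uptake transporter of organic anions, fell by 7.11 on the log2 scale (SE 0.29, edgeR adjusted p = 1.26e-06). *Slco1a4*, its relative, rose by 2.93 (SE 0.37, edgeR adjusted p = 0.00183) and *Abcc4*, an efflux pump of the sinusoidal membrane, by 2.95 (SE 0.53, edgeR adjusted p = 0.00767). *Gusb*, the lysosomal enzyme that splits glucuronides, rose by 0.48 (SE 0.12, edgeR adjusted p = 0.00786), from 969, 1164 and 1095 to 2104, 1924 and 2074 counts. *Ces1e*, which retains it in the endoplasmic reticulum, fell by 1.68 (SE 0.25, edgeR adjusted p = 0.00148).

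**Figure D5:**
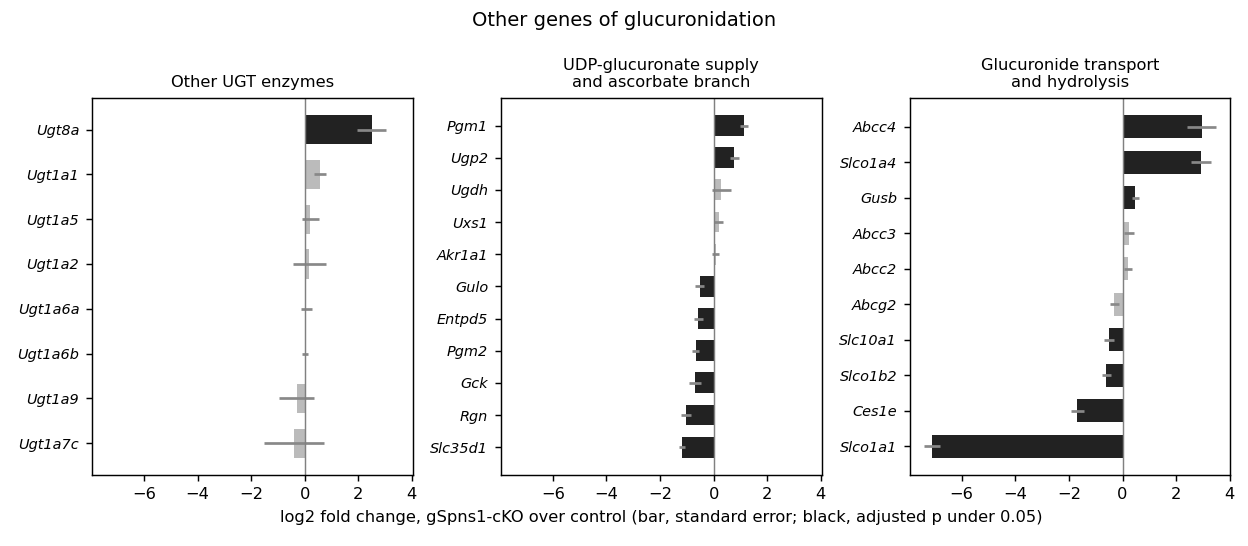
Log2 fold change between g*Spns1*-cKO and control livers, with standard errors, of the tested genes of 3 lists, with black bars for an edgeR adjusted p under 0.05. Among other UGT genes *Ugt8a* (2.50) is the single black bar, the supply genes run from -1.19 (*Slc35d1*) to 1.14 (*Pgm1*), and the transport genes from -7.11 (*Slco1a1*) to 2.95 (*Abcc4*).

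Of 30 regulators known to act on hepatic UGT genes 29 were tested. Of these 9 fell and 3 rose, with a median of -0.16, against the 41.8% of all genes that changed. With library size alone 3 were lower and 13 higher, and with hepatocyte markers 2 were lower and 15 higher. *Onecut1*, a hepatic transcription factor, changed by -1.44 (SE 0.47, edgeR adjusted p = 0.0434), *Cebpa*, which encodes C/EBP alpha, by -1.41 (SE 0.18, edgeR adjusted p = 0.000213) and *Foxa3* by -1.34 (SE 0.18, edgeR adjusted p = 0.000543). *Nr0b2*, which encodes the repressor SHP, rose by 1.20 (SE 0.22, edgeR adjusted p = 0.00338). *Hnf4a* (-0.42, edgeR adjusted p = 0.0666) and *Cux2* (6.04, 0.0557), named here after their values were seen, did not pass. *Cux2*, a repressor in liver, had 19, 8 and 5 counts in control and 38, 1511 and 1379 in g*Spns1*-cKO livers, with liver 1 close to the controls.

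The genes nearest in pattern to *Ugt2b5*, the most abundant member per length, were *Ebp*, an enzyme of cholesterol synthesis, *Slc15a5*, *Ptk2b*, *Elovl3*, a fatty acid elongase, and *Uck1*. Their Pearson correlation with *Ugt2b5* over the 6 livers, on log2 CPM, was between 0.997 and 0.999, and 909 genes were above 0.95. The 6 livers form 2 groups and share their scaling between genes, so such values are a description of the contrast and carry no test.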

How the data were processed

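Whole-liver mRNA of 6 mice (3 per genotype) was sequenced. The authors deposited raw counts of reads per gene, 1 column per library. The submitters' processing notes name fastp, HISAT2 2.0.5, featureCounts 1.5.0-p3 and mm10. The strand setting, the treatment of reads with several matches and the annotation release are not given in the sources used here. The 6 columns of FPKM values and the authors' own comparison (group means, log2 fold change and p-values) were not used.

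Groups came from the sample labels. Tests were run with edgeR 4.0.16 (R 4.3.3). Genes under the limit of filterByExpr were left out (15449 stayed). TMM scaling was applied, and the groups were compared by glmQLFit (robust) and glmQLFTest without covariates, with a threshold of 0.05 on the Benjamini-Hochberg adjusted p over all genes. The SE of a log2 fold change is its size over the square root of F. CPM and RPKM use TMM-scaled totals. Libraries of a group differed by 38.8 to 114 in chi-square per gene, so none is a duplicate. On simulated data for this comparison (15143 genes), 64 of 96 genes changed 2-fold and 96 of 98 changed 4-fold were recovered, with 13 false calls. Only a small share of genes was changed there, as many up as down, whereas 41.8% of genes were called in the data. Recovery and false calls in the data can therefore differ from these numbers. Precision is limited by 3 mice per group.

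The members and gene lists were chosen with earlier results of these data known. Named genes are all members, *Spns1*, up to 4 changed genes of largest size per list and among the neighbours (the 5 nearest tested genes on each side and those inside), with *Ugdh*, *Slc35d1*, *Gusb* and *Ugt1a1* whatever their value, and the 5 genes nearest to *Ugt2b5* in pattern. *Hnf4a* and *Cux2* were added. The value of 1 listed regulator and 1 motif are not reported here. Hepatocyte-marker scaling and the promoter block were chosen after seeing the data. The alternatives were other scalings and filters, DESeq2 1.42.0, limma-voom (limma 3.58.1), protein-coding genes alone, a replicate block and leaving out each library. Matches of 50 and 100 bases, coding identities and exons came from GENCODE M21 and promoters from RefSeq, both on GRCm38.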

Additional observations from a re-analysis of the deposited data

How the results depend on the processing

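With 3 mice per group and values that depend on how libraries were scaled, small changes are the least certain. Under every alternative run except the 2 scalings named next, each member kept its direction. With library size alone *Ugt2b35* was at 0.27, *Ugt2b34* at -0.34 and *Ugt2b36* at -0.16, and neither of the last 2 passed, nor did *Spns1* at -0.43. With hepatocyte markers as the scale, 5 members were called, and *Ugt2b35* was at 0.52 and *Ugt2b36* at 0.094, while *Ugt2a3* (-0.13), *Ugt2b34* (-0.085), *Ugt2b37* (-1.45), *Ugt3a2* (-0.34) and *Spns1* (-0.22) did not pass. That scaling called 10234 genes (9703 higher, 531 lower) and library size alone 8259 (7289 higher, 970 lower), against 6452 (3286 higher, 3166 lower). Upper-quartile scaling gave 4111 higher and 2240 lower, and *Spns1* at -0.74, which did not pass. The log2 ratio of the summed UGT2 counts was -0.53 with library size alone.

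Of the other UGT genes 3 were called with library size alone, 2 with upper-quartile scaling, DESeq2 or at least 1 count in any library, 5 with hepatocyte markers and 0 with at least 10 counts in every library, where *Ugt8a* is not tested. Of the supply genes 5 were called with upper-quartile scaling and 5 with hepatocyte markers, and of the neighbours 17 with hepatocyte markers. The cause was not tested.

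Leaving out 1 library at a time, between 7 and 9 members were called. The log2 fold change ran from -2.96 to -1.68 for *Ugt2b37*, from -4.54 to -3.17 for *Ugt3a1* and from -1.18 to -0.68 for *Spns1*. Between 1 and 2 other UGT genes, 5 and 8 supply genes and 7 and 13 regulators were called, and 5 supply genes were called without control liver 1 or 3 or g*Spns1*-cKO liver 2 or 3. Without g*Spns1*-cKO liver 3, 7 regulators were called.

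The labels do not say that mice with the same replicate number are paired. Deviations of same-numbered libraries from their group means correlated at 0.042, 0.032 and -0.027. With 3 libraries per group such values cannot exclude a pairing by litter or batch. With the number as a replicate block 9 members and 6100 genes were called. *Spns1* was then at -0.90 (edgeR adjusted p = 0.000679), against -0.87 (0.0300) without the block.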
